A study of Homo sapiens with 6 samples.

Results

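The genes described here encode the DNA replication machinery, the proteins that license origins, unwind and copy the DNA and supply its building blocks. They were taken by name, as the genes of the deposited table whose symbol was on a list of replication genes, and not by any measured value. All 47 listed genes were found among the 20026 genes of the table, and all 47 passed the filter on low counts in each of the 3 comparisons. RNA was sequenced from HepG2 cells, a human liver cancer line, in which CRISPR/Cas9 had been used to delete the mature sequence of 1 microRNA in the knockout groups. The groups were Scr cells, labelled wild type and carrying the editing vector without a targeting guide, miR-23a KO cells and miR-27a KO cells, with 2 libraries each. Both knockouts lie in the microRNA cluster that also encodes miR-24-2. The study reported that each knockout also changed other microRNAs of this cluster. In miR-23a KO cells, forms of miR-27a and miR-24 were lower. In miR-27a KO cells, miR-24 was lower and the main form of miR-23a slightly higher. The effect of losing 1 microRNA alone was therefore not tested here. The study reported slower growth of both knockouts than of Scr cells, in culture and as tumours in mice. It asked which transcripts accompany this reduced growth. The comparisons made here were each knockout with Scr, and the knockouts with each other.

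The knockout cells were grown from single sorted cells, so each knockout group stands for 1 or 2 clones (the study describes 2 for each knockout). The study also writes of selected scramble colonies, so Scr may likewise stand for few clones. The labels do not say whether the libraries of a group are separate clones, separate cultures or repeats. The p-values given here therefore measure only the spread between these samples, which may be technical. MicroRNAs were not analysed here, so the genotype of each library rests on its label. Summed over genes, the Scr libraries held 14891239 and 14405250 counts, those of miR-23a KO 16515261 and 15930779, and those of miR-27a KO 15850589 and 15947308. The cell type label holds the term triple-negative, which is otherwise used of breast tumours. All 10 hepatocyte markers looked for were detected, with a summed level between 25757 and 37041 CPM (scaled counts for each 1000000 counts of a library) in the 6 libraries. *SERPINA1* was the most abundant over all libraries together, although *ALB* exceeded it in Scr replicate 2 and miR-23a KO replicate 2. *ALB* was at 10249.5 and 15023 CPM for Scr, 7934 and 14889 CPM for miR-23a KO and 2087 and 2147 CPM for miR-27a KO, and *AFP* at 2547 and 3891, 3825 and 6643, and 184 and 191 CPM in the same order. Both were lowest in miR-27a KO, as was *FGB* at 25.1 and 47.2, 13.3 and 13.9, and 8.66 and 9.02 CPM. Some other hepatocyte markers were highest there instead. *TF* was at 3263 and 2253, 2379.6 and 2106, and 6545 and 6736 CPM, and *SERPINA1* and *HNF4A* were also highest there. Of the breast epithelial markers, 4 of 7 were in the table, summing to between 0.458 and 19.9 CPM, most of it *ELF5*, and *ESR1*, *PGR* and *GATA3* had 0 to 2 counts in every library. Of the fibroblast markers 2 of 7 were present, with *PDGFRB* the most abundant, *COL1A1* at 0 to 2 counts and a sum of 5.11 to 30.0 CPM, lowest in miR-27a KO. Of the leukocyte markers 5 of 5 were present and summed to between 74.0 and 165 CPM, nearly all of it *CD68*, while *PTPRC* had 1 or 2 counts. Of the endothelial markers 3 of 4 were present, summing to 3.36 to 6.97 CPM with *PECAM1* the most abundant. The part of these marker differences in the results was not tested.

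Chromosomes are copied from many origins, each marked by the origin recognition complex, which with CDC6 and CDT1 loads the ring-shaped MCM2-7 helicase in G1 phase. At the start of S phase the kinase CDC7-DBF4 and the factors CDC45, GINS and MCM10 switch the helicase on, after which primase, the DNA polymerases, the sliding clamp and its loader, the single-strand binding protein RPA and the nucleotide-making enzymes copy the strands. Most of these genes are transcribed as cells pass from G1 into S phase, partly under E2F factors, and their RNA is commonly read as a mark of proliferating cells, liver cancer cells included.

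The edited microRNAs act through their seed, bases 2 to 8, which pairs with matching sites in the 3′ untranslated region (3′-UTR) of messenger RNAs. Their mature sequences, from RefSeq on build GRCh38.p14, are shown with the seed in capitals. They lie on the minus strand at chr19:13836595-13836615 for miR-23a-3p and chr19:13836447-13836467 for miR-27a-3p.
miR-23a-3p: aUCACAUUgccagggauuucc
miR-27a-3p: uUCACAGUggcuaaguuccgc
The sequence that pairs with the miR-23a-3p seed, AATGTGA, occurred in the longest annotated 3′-UTR of 5 of the 47 replication genes (10.6%), against 19.7% of the 12517 genes that passed the count filter and have such a 3′-UTR. For the miR-27a-3p seed the match, ACTGTGA, occurred in 3 of 47 (6.38%) against 17.1%. The median 3′-UTR was 935 bases long in the replication genes and 1290 bases in all these genes, and sites were searched as exact matches on the transcript strand.

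The replication genes with a miR-23a-3p seed match were *CDC6*, *MCM4*, *MCM6*, *ORC2* and *RRM2*, and those with a miR-27a-3p match were *GINS1*, *ORC5* and *RFC4*. *RFC4*, whose site is not shown, had a log2 fold change of 0.15 in miR-27a KO (edgeR adjusted p = 0.337). Sites are shown for *GINS1*, which was called in miR-27a KO, *ORC5*, and *MCM6* and *ORC2*, whose miR-23a KO replicates were far apart, with the match in capitals and 11 bases on each side, all in a 3′-UTR of the GENCODE 29 annotation (GRCh38). They were chosen after the values had been seen.
MCM6 site at base 449: atctacttctgAATGTGAgactttccctt
MCM6 site at base 1012: ctttccagtgcAATGTGAatttgagcagc
ORC2 site at base 1932: atttgtacataAATGTGAtttaaaaaaat
GINS1 site at base 2489: agccttgctaaACTGTGAgttctcatggt
ORC5 site at base 26: gccatatggacACTGTGAcaatgactaag
Positions count from the start of the 3′-UTR. The matches lie at chr2:135840380-135840386 and chr2:135839817-135839823 (minus strand) for *MCM6* and at chr2:200909363-200909369 (minus strand) for *ORC2*. Those of miR-27a-3p lie at chr20:25448480-25448486 (plus strand) for *GINS1* and chr7:104126816-104126822 (minus strand) for *ORC5*. A match is a description of the sequence, and binding was not measured.

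Promoters were taken from RefSeq (GRCh38.p14) as the 250 bases before and 50 bases after the start site, and 41 of the 47 replication genes had at least 1, giving 53 windows. Those not matched were *GINS4*, *MCM4*, *MCM5*, *POLD3*, *RPA2* and *RPA3*. Both strands were searched for exact matches, and overlapping matches were kept. The E2F-like sequence TTTNNCGC occurred in 23 of the 53 windows (43.4%) and in 6.89% of all 35116 promoters, and TTNNCGCC, which can overlap it, in 21 (39.6%) and 11.1%. At least 1 of these occurred in 30 of the 41 genes (73.2%) and in 17.0% of all 27305 genes with a promoter. The NF-Y sequence CCAAT was found in 29 windows (54.7%) and in 34.6% of all promoters, and 18 genes held both CCAAT and an E2F-like sequence. The CHR-like sequences were not more frequent than elsewhere: TTTGAA was in 2 windows (3.77%, all promoters 15.2%) and TTNGAA, which includes it, in 10 (18.9%, all promoters 34.5%). The median GC content was 65.0% in the replication promoters and 58.7% in all promoters. No test was made on these shares.

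Promoters are printed for *PRIM1*, *POLE* and *RRM1*, which were called higher in miR-27a KO cells (primase, a polymerase and a nucleotide enzyme), and for *MCM6*, the replication gene with the lowest fitted difference in miR-23a KO cells. Each is the 250 bases before the start site, on the strand of the gene, with matches to the E2F-like sequences or CCAAT on either strand in capitals.
PRIM1 promoter: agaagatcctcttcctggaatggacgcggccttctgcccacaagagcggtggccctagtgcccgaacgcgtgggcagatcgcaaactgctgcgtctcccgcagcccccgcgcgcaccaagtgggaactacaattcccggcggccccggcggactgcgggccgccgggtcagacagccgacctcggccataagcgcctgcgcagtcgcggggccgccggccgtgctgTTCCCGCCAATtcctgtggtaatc
POLE promoter: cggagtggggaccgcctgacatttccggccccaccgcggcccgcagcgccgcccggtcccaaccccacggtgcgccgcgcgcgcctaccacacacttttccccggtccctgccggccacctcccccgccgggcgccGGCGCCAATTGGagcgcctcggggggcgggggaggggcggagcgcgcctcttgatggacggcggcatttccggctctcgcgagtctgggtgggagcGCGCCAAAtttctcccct
RRM1 promoter: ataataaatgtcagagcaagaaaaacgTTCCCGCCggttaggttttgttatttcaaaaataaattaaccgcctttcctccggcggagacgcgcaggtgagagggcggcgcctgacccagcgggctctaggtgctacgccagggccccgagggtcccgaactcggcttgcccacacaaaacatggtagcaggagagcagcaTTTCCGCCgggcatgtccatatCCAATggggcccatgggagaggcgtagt
MCM6 promoter: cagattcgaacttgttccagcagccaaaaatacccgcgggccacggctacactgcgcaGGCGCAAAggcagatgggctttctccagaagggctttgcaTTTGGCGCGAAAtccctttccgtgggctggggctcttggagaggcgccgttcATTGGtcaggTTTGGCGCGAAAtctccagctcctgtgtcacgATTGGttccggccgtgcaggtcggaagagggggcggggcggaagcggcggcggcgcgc
They lie at chr12:56752324-56752573 (minus strand), chr12:132687343-132687592 (minus strand), chr11:4094435-4094684 (plus strand) and chr2:135876444-135876693 (minus strand). Counted over both strands, *MCM6* held 4 matches to TTTNNCGC, 3 to TTNNCGCC and 2 to CCAAT. *POLE* held 1, 1 and 2, *PRIM1* 0, 1 and 1, and *RRM1* 0, 2 and 1, each in the same order.

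The libraries of the 3 groups differed in how well their replicates agreed, and this bears on every value for miR-23a KO cells. The median difference between the replicates over the 47 replication genes was 0.66 on the log2 scale for miR-23a KO, 0.21 for Scr and 0.08 for miR-27a KO. More than 2-fold apart were 13 of 47 genes (27.7%) in miR-23a KO, 1 of 47 (*CDC7*) in Scr and 0 of 47 in miR-27a KO, against 47.5%, 9.03% and 3.64% (same order) of the 14163 genes that passed the filter over all libraries. The difference followed the GC content of the transcripts, which ran from 37.7% in *ORC4* to 65.0% in *POLD1*. Across the 47 genes, which are not independent replicates, the log2 ratio of replicate 1 to replicate 2 correlated with GC content at Pearson r = 0.75 (Spearman rho 0.78) for miR-23a KO, 0.62 (0.59) for Scr and 0.19 (0.27) for miR-27a KO. Over all 13463 genes with a GC value r was 0.63, 0.36 and 0.04. Of the 24 replication genes at or under the median GC content of 45.8%, 23 were higher in miR-23a KO replicate 2, and of the 23 genes above it 18 were higher in replicate 1.

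**Figure D1:**
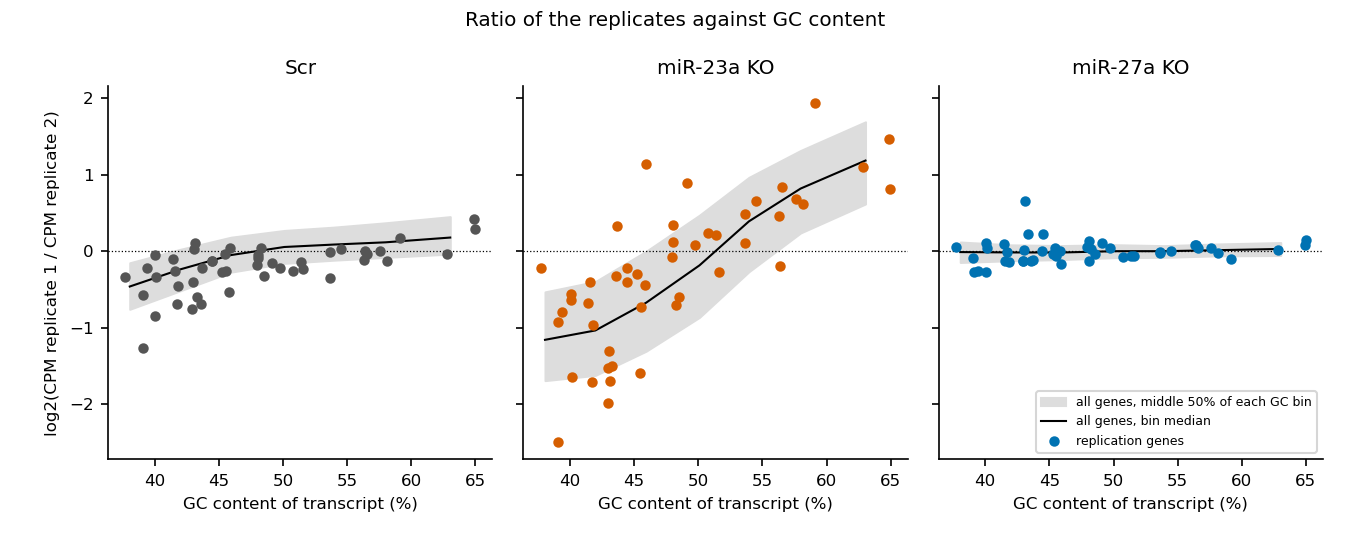
Log2 ratio of CPM in replicate 1 to replicate 2 (vertical axis) against the GC content of the transcript in percent (horizontal axis), for each group. Points are the 47 replication genes, the line and band are the median and middle 50% of all genes in bins of GC content; the points climb with GC content in miR-23a KO (r = 0.75) and stay near 0 in miR-27a KO (r = 0.19).

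Relative to the mean of the Scr libraries, the median replication gene stood at 0.28 and 0.40 (log2) in the miR-23a KO libraries and at 0.34 and 0.35 in the miR-27a KO libraries, while the Scr libraries themselves stood at -0.08 and 0.08. The median of all genes was between -0.03 and 0.04 in the 6 libraries. Above the Scr mean were 35 and 40 of 47 replication genes for the miR-23a KO libraries, and 46 and 45 for those of miR-27a KO. Scr replicate 1 lay under replicate 2 in 38 of the 47 genes. Summed over the 47 genes, the level was 3531 and 3883 CPM for Scr, 5244 and 4568 CPM for miR-23a KO and 4549 and 4543 CPM for miR-27a KO, so that all 4 knockout libraries lay above both Scr libraries. Because each library is bulk RNA, a different share of cells in S phase and a different amount of RNA per cell cannot be told apart.

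Split at the median GC content, the genes showed that the miR-23a KO libraries were high in different genes. The 24 genes of lower GC content had a median of 0.04 in miR-23a KO replicate 1 and 0.85 in replicate 2, and the 23 of higher GC content 0.56 and 0.09. In miR-27a KO the medians were 0.39 and 0.39 for the lower and 0.31 and 0.31 for the higher GC genes. Both miR-27a KO libraries were thus above the Scr mean in either class, whereas each miR-23a KO library was clearly above it in 1 class. What part GC content has in the difference from Scr was not tested beyond the corrected fits given with the counts.

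**Figure D2:**
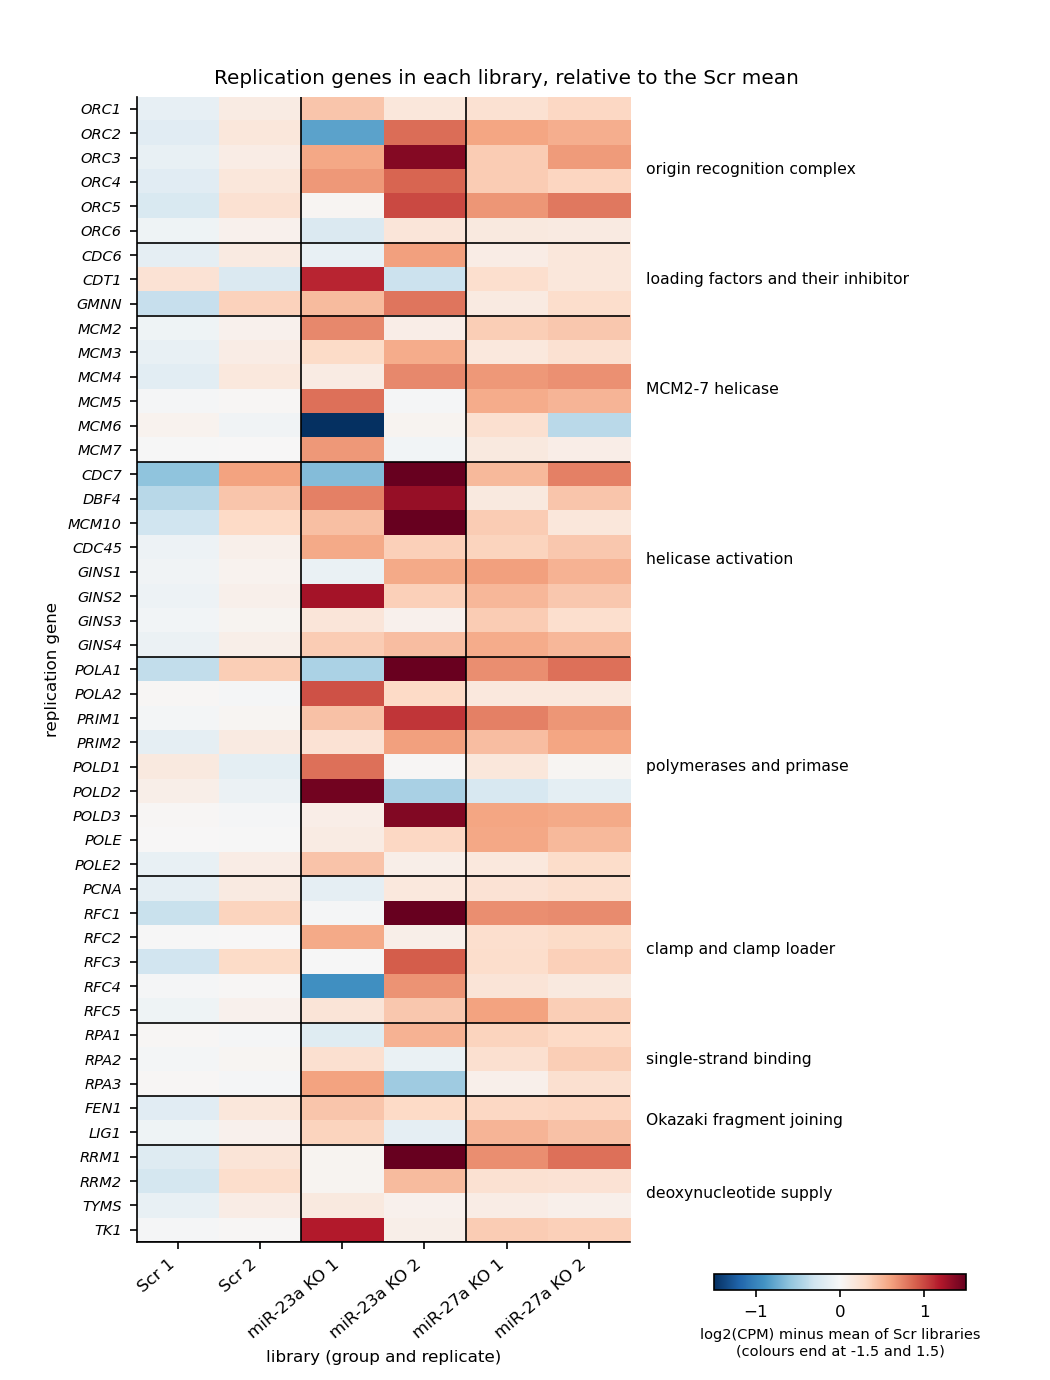
Heat map of the 47 replication genes, by role, in the 6 libraries, as log2(CPM) minus the mean of the Scr libraries (pseudocount 0.1, red higher and blue lower). The miR-27a KO columns are alike and mostly above Scr (46 and 45 of 47 genes), while the miR-23a KO columns differ from each other.

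In miR-27a KO cells compared to Scr cells the replication genes were mostly higher. Over all roles 9 of the 47 genes rose and 0 fell, at an adjusted p under 0.05 (edgeR's quasi-likelihood test, adjusted by Benjamini and Hochberg over all genes tested), where 4.91% of the 13820 genes tested rose and 9.12% fell. The 9 were the helicase subunits *MCM2*, *MCM4* and *MCM5*, the helicase cofactor *GINS1*, the primase *PRIM1*, the polymerase *POLE*, the ligase *LIG1* and the nucleotide enzymes *RRM1* and *TK1*, with fitted fold changes of 1.27 to 1.66. At an unadjusted p under 0.05 there were 22 of 47, against 32.2% of all genes in either direction, and DESeq2 also called 9 higher and 0 lower (789 and 1450 of all 13820 genes). At the thresholds of the study, a fold change over 1.5 with an adjusted p under 0.001, edgeR called 0 of 47 and 0.0289% of all genes, and DESeq2 1 of 47 and 893 of 13820 genes. The study itself used a q-value from a method it does not name. For each knockout it reported many more genes at these thresholds than either fit gave here.

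The miR-27a KO libraries both lay above both Scr libraries in 35 of 47 replication genes, against 33.4% of all genes, and both below in 1, *POLD2*, against 31% of all genes. The fitted value was above 0 for 45 of 47 genes, against 50.9%. The median log2 fold change of the replication genes was 0.30, and 0.47 without Scr replicate 2, and that of all genes was 0.01. Without miR-27a KO replicate 1 or replicate 2 the replication median was 0.32 and 0.33, about as large. These calls rest on both miR-27a KO libraries: without replicate 1 or without replicate 2 of miR-27a KO, 0 of 47 genes were called (5 and 8 at an unadjusted p under 0.05, where 2101 of 14302 and 2027 of 14292 of all genes had one, a similar share), with adjusted p of the 9 genes from 0.136 to 0.471 and from 0.187 to 0.459. Without Scr replicate 1 there were 23 calls, all higher, and without Scr replicate 2 there were 39, of which 38 were higher and 1 (*POLD2*) was lower. Calls over all genes grew as well in these fits, to 5368 of 14208 (2559 higher) and 7066 of 14296 (3402 higher), while without replicate 1 or replicate 2 of miR-27a KO they were 424 of 14302 and 334 of 14292. In those fits the lone library is assumed to vary like the other group, and the miR-27a KO libraries were the closest pair. A fit of all 6 libraries, which takes in the spread of miR-23a KO, called 0 of 47 (0 also at an unadjusted p under 0.05) and 64 of 14163 genes. Without a filter on low counts 3 of the 9 calls were kept, where 1.87% of all genes were called higher. After a correction for GC content and length 14 replication genes were called higher, among them 8 of the 9, where the share of all genes called higher was 7.94%.

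**Figure D3:**
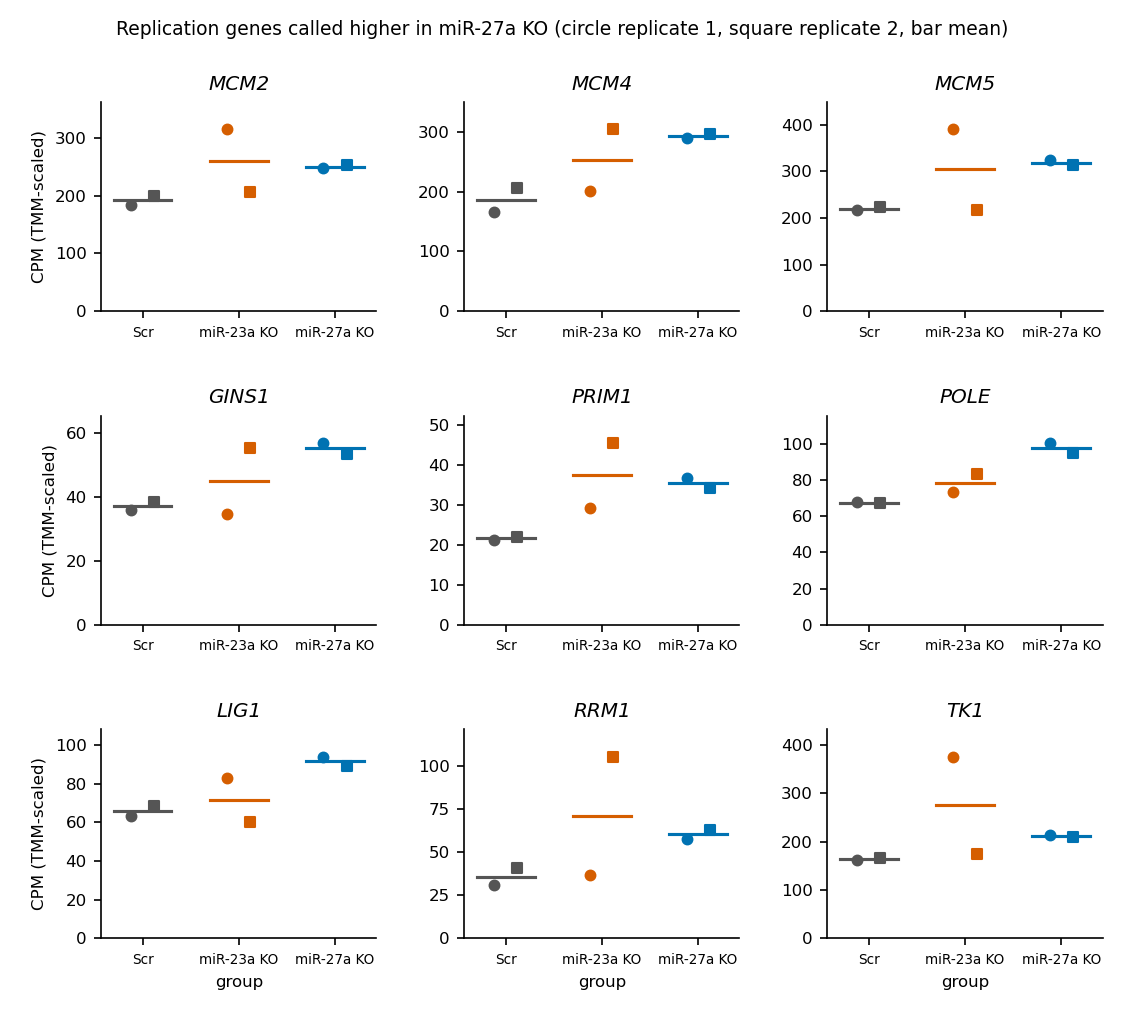
Level in CPM (scaled by TMM, vertical axes from 0) of the 9 replication genes called higher in miR-27a KO, in each library of the 3 groups; circles are replicate 1, squares replicate 2 and bars the group mean. Both miR-27a KO points lie above both Scr points in each panel, and the miR-23a KO points are far apart in most, as in *RRM1* (36.5 and 106 CPM).

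In miR-23a KO cells compared to Scr cells the fitted values were also mostly positive, but none passed the test. edgeR called 0 of the 47 genes higher and 0 lower, where 0% of the 13786 genes tested were called higher and 0% lower, and 0% passed the thresholds of the study. At an unadjusted p under 0.05 there were also 0 of 47, against 2.41% of all genes, and DESeq2 called 0 at its adjusted p (63 of all 13786 genes) and 1 at the unadjusted p (408 of all genes). The median log2 fold change was 0.46 for the replication genes and 0.16 for all genes, and 46 of 47 fitted values were above 0, against 63% of all genes. Fewer were above 0 with 1 miR-23a KO library left out, 40 of 47 without replicate 1 and 33 of 47 without replicate 2. The medians of all genes in those fits were -0.05 and -0.08. Both miR-23a KO libraries were above both Scr libraries in 21 of 47 genes (all genes 9.91%) and both below in 0 (all genes 13.7%). With library totals as the scale, in limma on per-length values, the median of all genes shifted to -0.04 and that of the replication genes to 0.33, with 40 of 47 above 0.

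Each miR-23a KO library on its own gave other genes. Without miR-23a KO replicate 2, 9 genes were called higher (*CDT1*, *MCM2*, *MCM5*, *MCM7*, *GINS2*, *POLA2*, *POLD1*, *POLD2*, *TK1*) and 2 lower (*MCM6*, *RFC4*), where 1697 of 14136 genes were called higher and 933 lower, and the median was 0.26. Without replicate 1, 3 genes were called higher (*MCM10*, *RFC1*, *RRM1*), where 338 of 14417 genes were called higher and 256 lower, and the median was 0.40. No replication gene was in both sets, and in either fit the share of replication genes called, in both directions together, was near that of all genes. With Scr replicate 1 or Scr replicate 2 left out there were 0 calls, 0 of 47 also at an unadjusted p under 0.05 (145 of 14305 and 194 of 14391 of all genes, also few), and the medians were 0.31 and 0.54.

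The knockouts were then compared with each other, which is the test of a difference between them; both knockout comparisons use the same Scr libraries. edgeR called 0 of 47 genes higher in miR-23a KO and 0 lower (0% and 0% of the 13841 genes tested, and 0% at the thresholds of the study). At an unadjusted p under 0.05 there were 0 of 47, against 8.72% of all genes, and DESeq2 gave 0 both ways (477 of all 13841 genes at its adjusted p, 1313 at the unadjusted p). The median log2 difference was 0.04 for the replication genes and 0.11 for all genes, with 28 of 47 above 0 (all genes 57.6%). With library totals as the scale in limma these medians were -0.10 and -0.09, and 16 of 47 values were above 0. Both miR-23a KO libraries were higher than both miR-27a KO libraries in 6 genes (all genes 19.7%) and lower in 6 (all genes 19.9%). With only miR-23a KO replicate 2 in its group 18 genes were called higher and 12 lower, and with only replicate 1, 14 higher and 21 lower, so that the outcome turned on which of these libraries was used. In the same fits 8298 of 14361 and 9665 of 14207 of all genes were called, shares close to those of the replication genes, so these counts are no result about replication genes. Leaving out either miR-27a KO library gave 0 calls, and 0 at an unadjusted p under 0.05, where 493 of 14436 and 479 of 14392 of all genes had one.

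**Figure D4:**
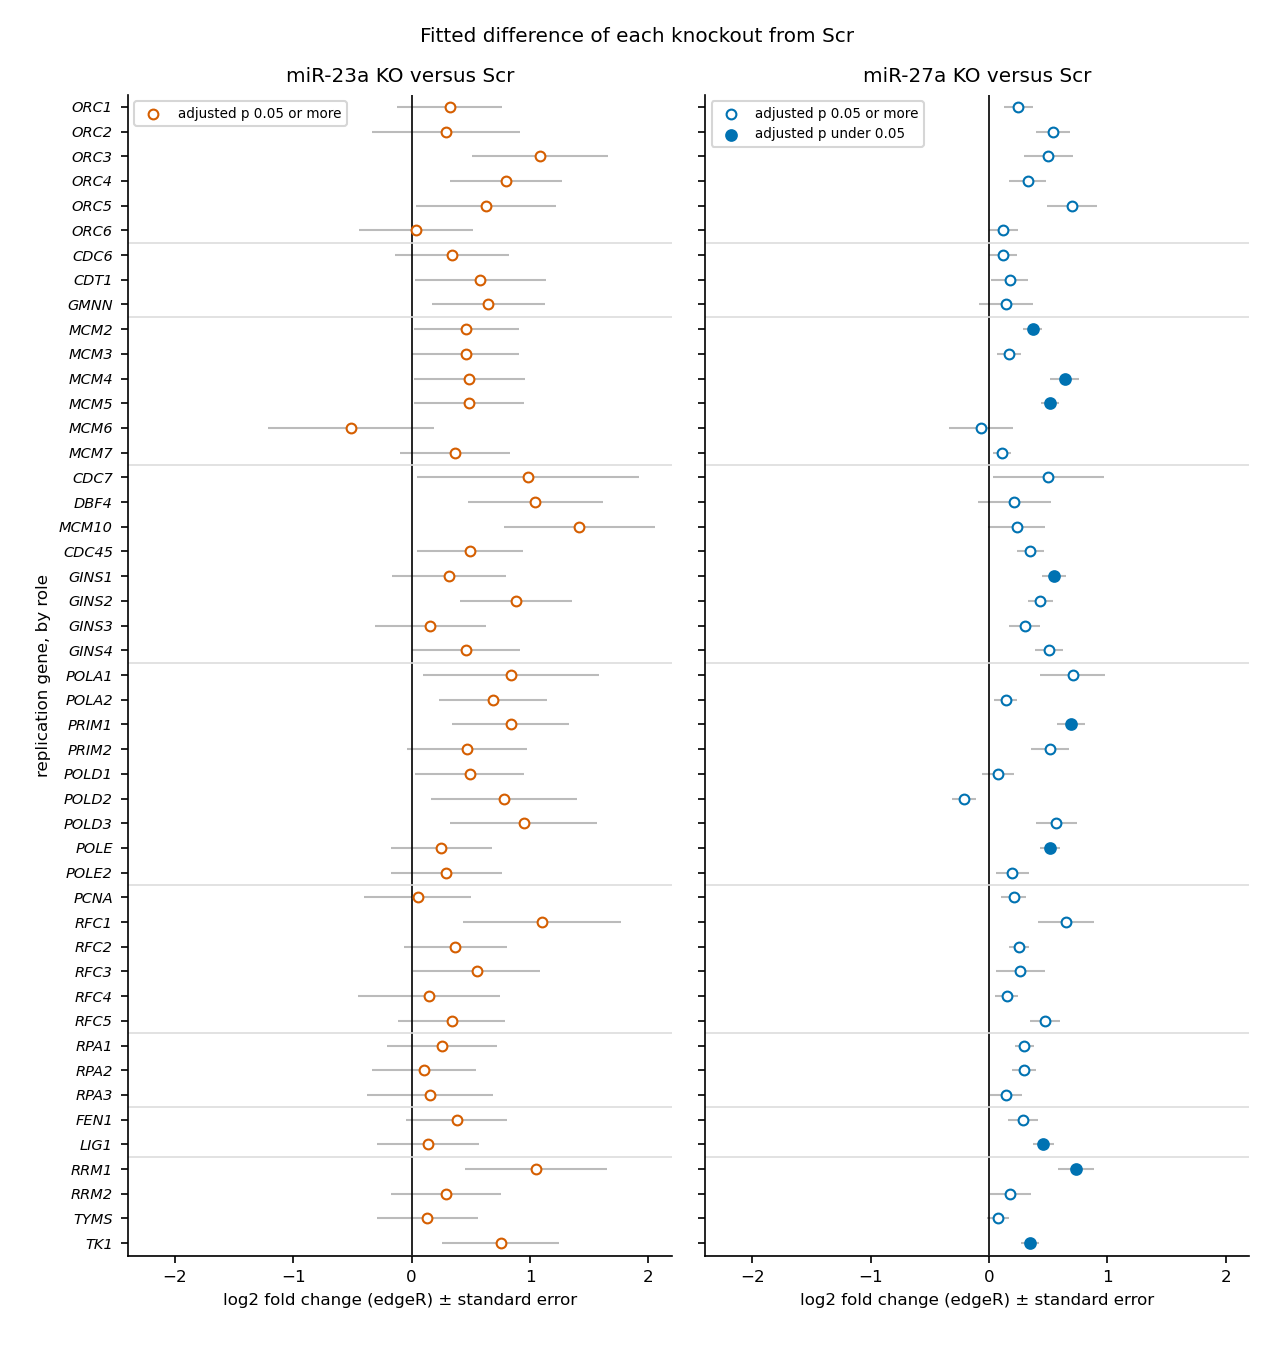
Fitted log2 fold change of each of the 47 replication genes (horizontal axes) with its standard error in miR-23a KO versus Scr (left) and miR-27a KO versus Scr (right), from 2 libraries a group; filled points have an adjusted p under 0.05. Medians are 0.46 and 0.30, and the standard errors are wider on the left.

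The origin recognition complex, which marks origins and recruits the loading factors, is made of 6 subunits. All 6 were above both Scr libraries in both miR-27a KO libraries (all genes 33.4%), with a median log2 fold change of 0.41 (0.12 for *ORC6* up to 0.70), but 0 of 6 passed the test at an adjusted p under 0.05 (edgeR). *ORC5*, an ATP-binding subunit, had the highest value: it was at 8.41 and 11.6 CPM in Scr cells, at 10.1 and 19.6 CPM with miR-23a KO and at 15.6 and 17.2 CPM with miR-27a KO. The miR-27a KO libraries did not overlap Scr, while miR-23a KO replicate 1 lay within the Scr range. The miR-27a KO value was 0.70 ± 0.21 (log2, SE), with an edgeR adjusted p of 0.0883. *ORC2*, a core subunit, was at 23.2 and 29.1 CPM for Scr, 14.8 and 46.5 CPM for miR-23a KO and 39.2 and 38.1 CPM for miR-27a KO. The miR-23a KO libraries lay on either side of all others, at the lowest and the highest level. Against miR-27a KO the miR-23a KO value was -0.35 ± 0.60 (SE, edgeR adjusted p = 0.917), and it turned to 0.23 without miR-23a KO replicate 1 and to -1.38 without replicate 2.

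*ORC3*, the subunit that bridges ORC2 and ORC5 in the complex, was at 7.45 and 8.66 CPM in Scr cells, at 12.1 and 21.0 CPM with miR-23a KO and at 10.5 and 12.6 CPM with miR-27a KO. Every knockout library was above both Scr libraries. The log2 fold change was 1.08 ± 0.57 (SE) in miR-23a KO (edgeR adjusted p = 1.00) and 0.50 ± 0.21 in miR-27a KO (adjusted p = 0.166). *ORC6*, the smallest subunit and the one least tightly bound to the rest, was at 23.5 and 25.5 CPM for Scr, 21.0 and 27.9 CPM for miR-23a KO and 27.0 and 26.9 CPM for miR-27a KO. In miR-23a KO its libraries enclosed both Scr libraries, so its fitted value of 0.04 ± 0.48 (SE) had no firm sign, turning to -0.06 without Scr replicate 1 and -0.24 without miR-23a KO replicate 2. The remaining subunits *ORC1*, which carries the ATPase activity and cycles with the cell cycle, and *ORC4* had fitted values of 0.32 and 0.80 for miR-23a KO and of 0.25 and 0.33 for miR-27a KO.

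The loading factors CDC6 and CDT1 bring the helicase to the origin, and geminin (*GMNN*) blocks CDT1 once S phase has begun. None of the 3 genes passed the test in either knockout, and their miR-27a KO libraries overlapped Scr in all 3. *CDT1* was at 196 and 146 CPM in Scr cells, at 373 and 135 CPM with miR-23a KO and at 201 and 189 CPM with miR-27a KO. Scr and miR-23a KO replicates were both apart here, with miR-23a KO replicate 1 the highest and replicate 2 the lowest of the 6 libraries. In miR-27a KO its log2 fold change was 0.18 ± 0.16 (SE, edgeR adjusted p = 0.486), and 0.50 with the GC and length correction, where it was called, but -0.02 without Scr replicate 2. *GMNN* was at 31.8 and 51.2 CPM for Scr, 56.01 and 70.4 CPM for miR-23a KO and 44.3 and 48.5 CPM for miR-27a KO, with both miR-23a KO libraries above the rest and a fitted value there of 0.65 ± 0.48 (SE). *CDC6* was fitted at 0.34 for miR-23a KO and 0.12 for miR-27a KO, the former -0.14 without miR-23a KO replicate 2.

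The MCM2-7 helicase unwinds the DNA as a ring of 6 related subunits, all of them needed. In miR-27a KO 3 of the 6 rose (all genes 4.91%), 5 lay above both Scr libraries (all genes 33.4%), and the median log2 fold change was 0.27. *MCM4* (gene ID 4173), a subunit of the catalytic core, was at 165 and 207 CPM in Scr cells, at 201 and 305 CPM with miR-23a KO and at 289.6 and 296 CPM with miR-27a KO. Both miR-27a KO libraries were above both Scr libraries, and the miR-23a KO libraries overlapped Scr. Its log2 fold change in miR-27a KO was 0.64 ± 0.12 (SE, edgeR adjusted p = 0.0310). *MCM5* (gene ID 4174), at the gate by which the ring opens, was at 217 and 223 CPM for Scr, 391 and 218 CPM for miR-23a KO and 324 and 314 CPM for miR-27a KO. Here the Scr libraries were close together and miR-23a KO replicate 2 was at their level. The value in miR-27a KO was 0.52 ± 0.08 (SE, edgeR adjusted p = 0.0183), the lowest adjusted p of all replication genes.

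*MCM2* (gene ID 4171), the other side of that gate, was at 183 and 200.3 CPM in Scr cells, at 315 and 206 CPM with miR-23a KO and at 248 and 253 CPM with miR-27a KO. All knockout libraries were above Scr, miR-23a KO replicate 2 by the smallest margin. The log2 fold change was 0.37 ± 0.08 (SE, edgeR adjusted p = 0.0440) in miR-27a KO and 0.46 ± 0.45 (adjusted p = 1.00) in miR-23a KO. Without miR-27a KO replicate 1 the edgeR adjusted p in miR-27a KO became 0.144 for *MCM4*, 0.255 for *MCM5* and 0.413 for *MCM2*, and it was 0.187, 0.221 and 0.459 when replicate 2 was left out. *MCM7*, another core subunit, was at 331 and 331 CPM for Scr, 519 and 322 CPM for miR-23a KO and 367 and 355 CPM for miR-27a KO. It differed little in miR-27a KO (0.11 ± 0.08, SE, edgeR adjusted p = 0.381), and *MCM3* had 0.17 there and 0.46 in miR-23a KO.

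*MCM6*, whose promoter and 3′-UTR matches are shown above, stood apart from the other subunits in level and direction. It was at 10.5 and 9.81 CPM for Scr, 3.21 and 10.4 CPM for miR-23a KO and 12.0 and 7.63 CPM for miR-27a KO, from counts of 154 and 146, 42 and 190, and 198 and 127. Within both knockouts the replicates disagreed, and miR-23a KO replicate 1 was the lowest library by a wide margin. Fitted log2 fold changes were -0.51 ± 0.70 (SE, edgeR adjusted p = 1.00) in miR-23a KO and -0.07 ± 0.27 (adjusted p = 0.882) in miR-27a KO. Without miR-23a KO replicate 1 the first became 0.04, and it was -1.68 without miR-23a KO replicate 2. The miR-27a KO value turned to 0.23 without miR-27a KO replicate 2. Against miR-27a KO the miR-23a KO value was -0.54 ± 0.67 (SE, edgeR adjusted p = 0.878), and 0.05 without miR-23a KO replicate 1. Per kilobase its Scr level was 2.72 CPM, while the other 5 subunits were between 44.5 (*MCM4*) and 107 (*MCM7*). In the ring the 6 proteins are present in equal numbers, and the low level of this gene is given as counted in the deposited table.

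Helicase activation takes the kinase CDC7 with its regulator DBF4, the recruiter MCM10, CDC45 and the 4 GINS subunits, which stay with the moving helicase. In miR-27a KO 1 of these 8 genes rose (all genes 4.91%) and 5 lay above both Scr libraries (all genes 33.4%), with a median log2 fold change of 0.39. *GINS1* (gene ID 9837) was at 36.0 and 38.5 CPM in Scr cells, at 34.6 and 55.4 CPM with miR-23a KO and at 57.0 and 53.5 CPM with miR-27a KO. Its miR-27a KO libraries were clear of Scr, and miR-23a KO replicate 1 was slightly under Scr. The log2 fold change in miR-27a KO was 0.55 ± 0.10 (SE, edgeR adjusted p = 0.0293), with 0.360 and 0.263 when replicate 1 or replicate 2 of miR-27a KO was left out. It was the 1 gene of the 9 that lost its call in the GC and length correction (log2 fold change 0.35, edgeR adjusted p = 0.0847; over the 8 alternatives 0.0155 to 0.889). *GINS4* and *GINS2* narrowly missed the threshold, at edgeR adjusted p of 0.0501 and 0.0534 with log2 fold changes of 0.51 and 0.43, and *GINS3* was at 0.30. *CDC45*, which completes the active helicase, had 0.35 (adjusted p = 0.107).

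In miR-23a KO this role held the highest fitted value of the whole machinery, *MCM10*, with 6 of 8 genes above both Scr libraries (all genes 9.91%) and a median of 0.69. *MCM10* was at 10.9 and 16.45 CPM in Scr cells, at 18.3 and 51.7 CPM with miR-23a KO and at 17.5 and 15.0 CPM with miR-27a KO. The high mean came mainly from miR-23a KO replicate 2, while replicate 1 was close to the upper Scr library. Its log2 fold change was 1.42 ± 0.64 (SE, edgeR adjusted p = 1.00), 0.40 when miR-23a KO replicate 2 was left out and 1.92 when replicate 1 was (adjusted p = 0.0323). Against miR-27a KO it was 1.09 ± 0.57 (SE, edgeR adjusted p = 0.733), the highest of the 47 genes in that comparison. Of the 8 alternatives, only the GC and length correction with the replicate block called *MCM10* there (1.07, edgeR adjusted p = 0.0488). In that fit 3.5% of all genes were called higher. *DBF4*, which gives CDC7 its activity, was at 7.52 and 13.5 CPM for Scr, 17.0 and 25.02 CPM for miR-23a KO and 11.2 and 13.5 CPM for miR-27a KO. Both miR-23a KO libraries were above the other 4, with a log2 fold change of 1.04 ± 0.57 (SE, edgeR adjusted p = 1.00) from Scr and 0.75 ± 0.38 (adjusted p = 0.707) from miR-27a KO. *CDC7* had the fewest counts of the machinery, with 22 and 54 for Scr, 19 and 149 for miR-23a KO and 55 and 67 for miR-27a KO, and its values of 0.98 ± 0.94 and 0.50 ± 0.47 (SE) carried the widest errors, the first turning to -0.84 without miR-23a KO replicate 2.

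DNA synthesis begins with primase and polymerase alpha, which lay down the primer, and goes on with polymerase epsilon on the leading strand and polymerase delta on the lagging strand. Of the 9 genes in this role 2 rose in miR-27a KO (all genes 4.91%) and 7 lay above both Scr libraries (all genes 33.4%), with a median log2 fold change of 0.51. *PRIM1* (gene ID 5557), the catalytic subunit of primase, was at 21.3 and 22.03 CPM in Scr cells, at 29.3 and 45.6 CPM with miR-23a KO and at 36.8 and 34.3 CPM with miR-27a KO. All 4 knockout libraries were above both Scr libraries. The log2 fold change was 0.70 ± 0.12 (SE, edgeR adjusted p = 0.0256) in miR-27a KO and 0.84 ± 0.49 (adjusted p = 1.00) in miR-23a KO. *POLE* (gene ID 5426), the catalytic subunit of polymerase epsilon, was at 67.7 and 67.3 CPM for Scr, 73.3 and 83.4 CPM for miR-23a KO and 101 and 94.7 CPM for miR-27a KO. The Scr libraries agreed closely and the miR-27a KO libraries were above all others. The miR-27a KO value was 0.51 ± 0.08 (SE, edgeR adjusted p = 0.0232). With miR-27a KO replicate 1 left out the adjusted p was 0.298 for *PRIM1* and 0.310 for *POLE*, and with replicate 2 left out it was 0.224 and 0.225. Against miR-27a KO, *POLE* in miR-23a KO was -0.33 ± 0.31 (SE, edgeR adjusted p = 0.841), with both libraries lower.

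*POLA1*, the catalytic subunit of polymerase alpha, was at 7.25 and 12.2 CPM in Scr cells, at 6.72 and 26.5 CPM with miR-23a KO and at 15.4 and 16.8 CPM with miR-27a KO. Its replicates differed in Scr as well as in miR-23a KO, where replicate 1 was the lowest library and replicate 2 the highest. The miR-27a KO value was 0.71 ± 0.27 (SE, edgeR adjusted p = 0.1501), 0.39 without Scr replicate 1 and 1.13 without Scr replicate 2 (adjusted p = 0.00110). *POLA2*, its regulatory subunit, was at 39.5 and 38.8 CPM for Scr, 76.3 and 48.2 CPM for miR-23a KO and 43.8 and 43.6 CPM for miR-27a KO. Both miR-23a KO libraries were the highest, replicate 1 by far, with a value of 0.69 ± 0.45 (SE, edgeR adjusted p = 1.00) against Scr and 0.50 ± 0.38 (adjusted p = 0.811) against miR-27a KO. The second primase subunit *PRIM2* had 0.51 in miR-27a KO and 0.47 in miR-23a KO, and the polymerase epsilon subunit *POLE2* 0.20 and 0.29.

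None of the polymerase delta subunits passed the test in either knockout. *POLD2*, which holds the complex together, was at 183 and 162 CPM in Scr cells, at 469 and 123 CPM with miR-23a KO and at 146 and 156 CPM with miR-27a KO. It was the 1 replication gene with both miR-27a KO libraries below both Scr libraries, and miR-23a KO replicate 1 was more than 2-fold above every other library. In miR-27a KO its log2 fold change was -0.21 ± 0.10 (SE, edgeR adjusted p = 0.205), and 0.08 with the GC and length correction. Against miR-27a KO the miR-23a KO value was 0.96 ± 0.69 (SE, edgeR adjusted p = 0.80), and -0.33 without miR-23a KO replicate 1. *POLD1*, the catalytic subunit and the most GC-rich transcript of the list, was at 69.5 and 56.8 CPM for Scr, 112 and 63.5 CPM for miR-23a KO and 70.8 and 63.9 CPM for miR-27a KO. The miR-27a KO libraries overlapped Scr, with a log2 fold change of 0.07 ± 0.13 (SE, edgeR adjusted p = 0.743) that turned to -0.07 without Scr replicate 2. With the GC and length correction it was 0.39 (edgeR adjusted p = 0.0448, over the 8 alternatives 0.0448 to 0.997) and was called. *POLD3*, an accessory subunit, was at 9.10 and 8.93 CPM for Scr, 9.63 and 23.8 CPM for miR-23a KO and 13.6 and 13.5 CPM for miR-27a KO, with both knockouts above Scr and values of 0.57 in miR-27a KO and 0.95 in miR-23a KO.

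The sliding clamp PCNA keeps the polymerases on the DNA, and replication factor C (RFC1 to RFC5) opens and loads it. None of these 6 genes passed the test in either knockout, though 5 of 6 lay above both Scr libraries in miR-27a KO (all genes 33.4%; median log2 fold change 0.26). *PCNA* was at 327 and 393 CPM in Scr cells, at 325 and 401 CPM with miR-23a KO and at 415 and 427 CPM with miR-27a KO. The miR-27a KO libraries were just above the upper Scr library, and the miR-23a KO libraries spanned the Scr range. The fitted log2 value was 0.21 ± 0.11 (SE, edgeR adjusted p = 0.245) in miR-27a KO and 0.05 ± 0.45 (adjusted p = 1.00) in miR-23a KO, the latter -0.11 without Scr replicate 1 and -0.17 without miR-23a KO replicate 2. *RFC1*, the large subunit of the loader, was at 12.9 and 20.8 CPM for Scr, 16.2 and 53.0 CPM for miR-23a KO and 26.6 and 26.8 CPM for miR-27a KO. It was high in miR-23a KO replicate 2 and within the Scr range in replicate 1. Its fitted log2 value was 1.10 ± 0.66 for miR-23a KO (SE, edgeR adjusted p = 1.00), -0.08 without replicate 2 and 1.65 without replicate 1 (adjusted p = 0.0425), and in miR-27a KO 0.65 ± 0.24 (adjusted p = 0.135). The small subunits *RFC2*, *RFC3*, *RFC4* and *RFC5* were at 0.25, 0.26, 0.15 and 0.47 in miR-27a KO and at 0.37, 0.55, 0.14 and 0.34 in miR-23a KO, where *RFC3* and *RFC4* turned to -0.06 and -0.95 without replicate 2.

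Replication protein A coats single-stranded DNA behind the helicase, through 3 subunits. All 3 had both miR-27a KO libraries above both Scr libraries (all genes 33.4%), with 0 of 3 passing the test. *RPA1*, the large subunit, had a log2 fold change of 0.30 ± 0.08 (SE, edgeR adjusted p = 0.0616) there. *RPA2*, the subunit phosphorylated on damaged DNA, was at 44.2 and 45.9 CPM in Scr cells, at 53.3 and 42.0 CPM with miR-23a KO and at 53.3 and 58.5 CPM with miR-27a KO. The miR-23a KO libraries lay on either side of Scr, and the fitted value of 0.11 ± 0.44 (SE) became -0.10 without miR-23a KO replicate 1. In miR-27a KO it was 0.29 ± 0.10 (SE, edgeR adjusted p = 0.117), and *RPA3*, the small subunit, had 0.14.

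Lagging-strand fragments are trimmed by the nuclease FEN1 and sealed by DNA ligase 1. *LIG1* (gene ID 3978) was at 63.2 and 68.6 CPM in Scr cells, at 82.7 and 60.03 CPM with miR-23a KO and at 94.0 and 89.2 CPM with miR-27a KO. The miR-27a KO libraries were the highest pair, and the miR-23a KO libraries enclosed Scr. The fitted value was 0.46 ± 0.09 (SE, edgeR adjusted p = 0.0335) in miR-27a KO, with 0.397 and 0.299 without replicate 1 or replicate 2 of that group, and 0.14 ± 0.43 (adjusted p = 1.00) in miR-23a KO, which turned to -0.14 without miR-23a KO replicate 1. Against miR-27a KO it was -0.37 ± 0.34 (SE, edgeR adjusted p = 0.839), with both miR-23a KO libraries lower. *FEN1* was at 82.8 and 105 CPM for Scr, 124 and 115 CPM for miR-23a KO and 115 and 117 CPM for miR-27a KO, above Scr in every knockout library, with 0.29 ± 0.13 (SE, edgeR adjusted p = 0.189) in miR-27a KO.

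The deoxynucleotides come from ribonucleotide reductase (RRM1 and RRM2), thymidylate synthase (TYMS) and thymidine kinase (TK1). In miR-27a KO 2 of these 4 genes rose, where 4.91% of all genes did. *RRM1* (gene ID 6240), the large subunit of the reductase, was at 30.9 and 40.8 CPM in Scr cells, at 36.5 and 106 CPM with miR-23a KO and at 57.8 and 62.9 CPM with miR-27a KO. Its highest library was miR-23a KO replicate 2, its miR-27a KO libraries were clear of Scr, and miR-23a KO replicate 1 was within the Scr range. Its fitted log2 fold change was 0.73 ± 0.15 (SE, edgeR adjusted p = 0.0382) in miR-27a KO, the highest of the machinery, and 1.05 ± 0.60 (adjusted p = 1.00) in miR-23a KO. The latter was 0.01 when miR-23a KO replicate 2 was left out, and 1.56 (edgeR adjusted p = 0.0288) when replicate 1 was. *TK1* (gene ID 7083), the salvage enzyme, was at 163 and 167 CPM for Scr, 376 and 175 CPM for miR-23a KO and 214 and 211 CPM for miR-27a KO. Here miR-23a KO replicate 1 was the highest and the Scr libraries agreed closely. Its value was 0.35 ± 0.07 (SE, edgeR adjusted p = 0.0398) in miR-27a KO and 0.75 ± 0.49 (adjusted p = 1.00) in miR-23a KO, the latter 1.17 without miR-23a KO replicate 2 (adjusted p = 0.00278).

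Leaving out miR-27a KO replicate 1 raised the edgeR adjusted p in miR-27a KO to 0.136 for *RRM1* and 0.471 for *TK1*, and leaving out replicate 2 to 0.247 and 0.442. *RRM2*, the regulated small subunit of the reductase, was at 170.0 and 246 CPM for Scr, 210.0 and 284 CPM for miR-23a KO and 239 and 238 CPM for miR-27a KO. Scr replicate 2 exceeded both miR-27a KO libraries, so that its log2 fold change of 0.18 ± 0.17 (SE, edgeR adjusted p = 0.524) turned to -0.05 without Scr replicate 1. *TYMS*, which makes thymidylate, was at 156 and 181 CPM for Scr, 186 and 175 CPM for miR-23a KO and 182 and 177 CPM for miR-27a KO. All 6 libraries were close, with values of 0.08 ± 0.10 (SE) in miR-27a KO, -0.02 without Scr replicate 1, and 0.13 ± 0.43 in miR-23a KO, where without Scr replicate 1 it was -0.0009. *TYMS* overlaps *ENOSF1* on the opposite strand, and its count is uncertain to the extent that reads of the pair were not separated: the study's methods name a stranded kit, the labels a TruSeq RNA kit without that word.

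Compared per kilobase of transcript, the levels of the machinery covered a wide range. In Scr cells *PCNA* was the most abundant at 265 CPM per kb, followed by *MCM7* at 107, *TYMS* at 101, *TK1* at 98.1 and *MCM3* at 97.0. At the low end were *CDC7* at 0.774, *POLA1* at 1.77, *POLD3* at 2.36, *DBF4* at 2.69 and *MCM6* at 2.72 CPM per kb. Origin recognition subunits were all low, from 3.21 (*ORC3*) to 14.41 (*ORC6*), as were most activation factors, while the helicase apart from *MCM6*, the clamp and the nucleotide enzymes *RRM2*, *TYMS* and *TK1* were high. *PCNA* was also the most abundant in miR-23a KO (267 CPM per kb) and miR-27a KO (309.9).

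**Figure D5:**
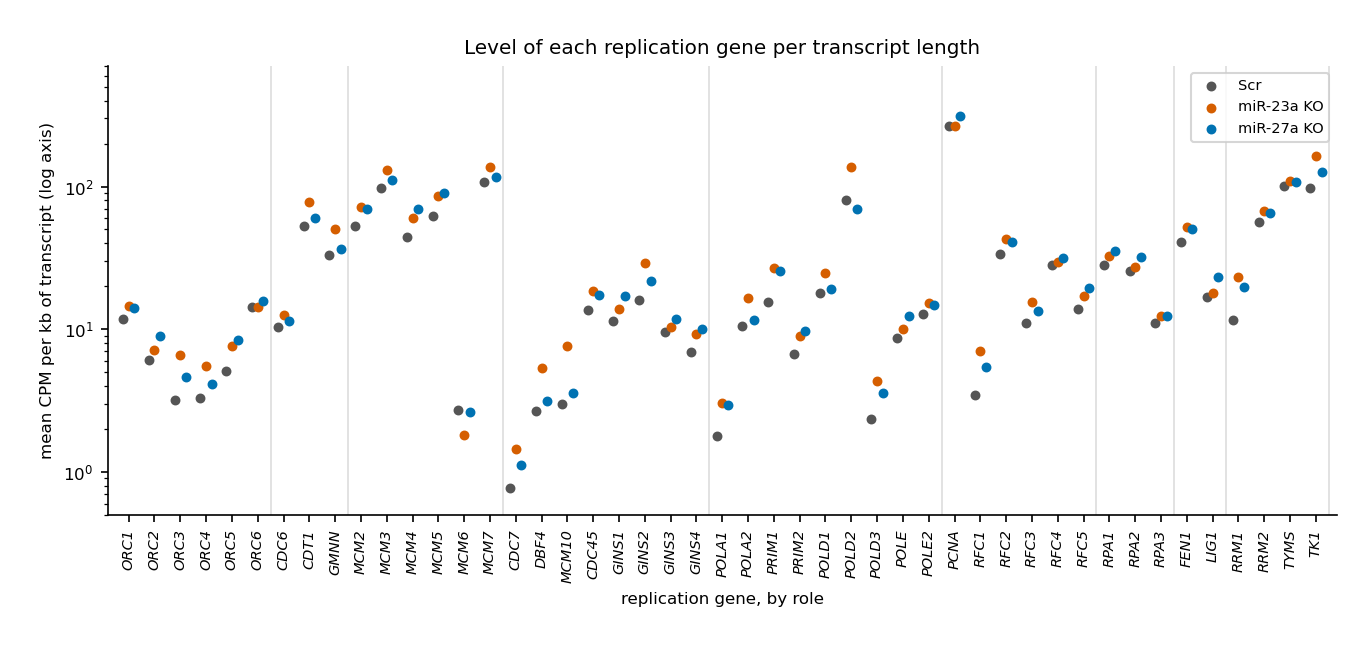
Mean level of each replication gene in CPM per kb of transcript (log axis), by role, for each of the 3 groups (2 libraries each). *PCNA* is highest (265 CPM per kb in Scr) and *CDC7* lowest (0.774), and the levels within a gene differ far less between groups than those between genes.

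A further 45 genes of replication outside the list, such as fork protection factors, histone chaperones, other nucleotide enzymes and topoisomerases, were read beside it. In miR-27a KO 4 of 45 rose and 1 fell (edgeR, adjusted p under 0.05), where 4.91% of all genes rose and 9.12% fell. At an unadjusted p under 0.05 there were 15 (33.3%), much the same share as the 32.2% of all genes. Above both Scr libraries lay 29 and below them 6 (all genes 33.4% and 31%), and the median log2 fold change was 0.20 (all genes 0.01). In miR-23a KO 0 passed the test (0 also at an unadjusted p under 0.05, and 0 in DESeq2 after adjustment), with a median of 0.49 (all genes 0.16) that was -0.004 without miR-23a KO replicate 2. Above both Scr libraries lay 12 and below them 2 (all genes 9.91% and 13.7%). Between the knockouts the median was 0.32 (all genes 0.11), and it was -0.13 without miR-23a KO replicate 2, 0.13 without replicate 1 and 0.03 in limma, with 0 calls by edgeR and 1 at an unadjusted p under 0.05 (all genes 8.72%). Without miR-27a KO replicate 1 the calls in miR-27a KO were 1, and without replicate 2 they were 0, with 6 at an unadjusted p under 0.05.

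*NASP*, a histone chaperone, was at 81.2 and 85.7 CPM for Scr, 63.8 and 149 CPM for miR-23a KO and 133 and 133 CPM for miR-27a KO. The miR-27a KO libraries were alike and clear of Scr, with a log2 fold change of 0.65 ± 0.08 (SE, edgeR adjusted p = 0.0130). *TICRR*, which helps load CDC45, was at 13.3 and 17.2 CPM for Scr, 18.0 and 22.6 CPM for miR-23a KO and 25.9 and 25.1 CPM for miR-27a KO, with 0.72 ± 0.17 (SE, edgeR adjusted p = 0.0493). *POLE3*, a histone-fold subunit of polymerase epsilon, was at 92.5 and 100.3 CPM for Scr, 128 and 95.9 CPM for miR-23a KO and 137 and 136 CPM for miR-27a KO, with 0.48 ± 0.08 (SE, edgeR adjusted p = 0.0255). Both were highest in the miR-27a KO libraries. *UHRF1*, which guides maintenance methylation to new DNA, was the 1 gene that fell, at 165 and 165 CPM for Scr, 125 and 211 CPM for miR-23a KO and 131 and 133 CPM for miR-27a KO. Its log2 fold change was -0.34 ± 0.07 (SE, edgeR adjusted p = 0.0432). It kept its direction in the 8 alternatives but its call in only 1 of them, RLE scaling (adjusted p from 0.0435 to 0.991). The calls of *NASP* and *POLE3* were kept in 7 of 8, all but the fit of all 6 libraries, and that of *TICRR* in 5. Without replicate 1 or replicate 2 of miR-27a KO the edgeR adjusted p was 0.124 and 0.135 for *NASP*, 0.345 and 0.321 for *TICRR*, 0.288 and 0.281 for *POLE3* and 0.529 and 0.498 for *UHRF1*.

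Other values at the ends of that list did not pass the test. In miR-27a KO *RNASEH2A*, the catalytic subunit of the ribonuclease that removes ribonucleotides from DNA, was at 84.6 and 69.9 CPM for Scr, 159 and 79.5 CPM for miR-23a KO and 57.0 and 53.7 CPM for miR-27a KO, a log2 fold change of -0.50 ± 0.13 (SE, edgeR adjusted p = 0.0590). *POLE4*, a further polymerase epsilon subunit, was at 43.7 and 46.9 CPM for Scr, 116 and 35.3 CPM for miR-23a KO and 33.1 and 36.3 CPM for miR-27a KO, with -0.40 ± 0.11 (SE, edgeR adjusted p = 0.0699) in miR-27a KO. Both miR-27a KO libraries of either gene lay under both Scr libraries, while miR-23a KO replicate 1 was the highest.

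The highest fitted values of these other genes in miR-23a KO were found for *WDHD1*, *MCM8* and *DSCC1*. *WDHD1*, which ties the helicase to polymerase alpha, was at 1.85 and 3.96 CPM for Scr, 3.82 and 13.9 CPM for miR-23a KO and 4.48 and 5.95 CPM for miR-27a KO, with a log2 fold change of 1.68 ± 0.82 (SE, edgeR adjusted p = 1.00) in miR-23a KO and 0.83 ± 0.43 (adjusted p = 0.244) in miR-27a KO. *MCM8*, a helicase of recombination, was at 10.5 and 18.3 CPM for Scr, 13.5 and 57.5 CPM for miR-23a KO and 18.9 and 20.0 CPM for miR-27a KO, with 1.37 ± 0.74 (SE, edgeR adjusted p = 1.00) in miR-23a KO. For both genes miR-23a KO replicate 2 was far above the rest and replicate 1 lay within the Scr range, and the values became 0.37 and -0.11 when replicate 2 was left out. *DSCC1*, a subunit of an alternative clamp loader, was at 3.15 and 4.57 CPM for Scr, 5.96 and 13.1 CPM for miR-23a KO and 5.45 and 7.57 CPM for miR-27a KO. All 4 knockout libraries were above Scr, with 1.36 ± 0.68 (SE, edgeR adjusted p = 1.00) in miR-23a KO (0.60 without its replicate 2) and 0.74 ± 0.32 (adjusted p = 0.181) in miR-27a KO.

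Lowest of the other genes in miR-23a KO were *SHMT1*, *MCM9* and *DCTD*, all with an edgeR adjusted p of 1.00. *SHMT1*, which feeds folate metabolism, was at 73.3 and 91.3 CPM for Scr, 82.2 and 49.7 CPM for miR-23a KO and 103 and 105 CPM for miR-27a KO, a fitted value of -0.30 ± 0.45 (SE), which was -0.02 when miR-23a KO replicate 2 was left out and -0.73 when replicate 1 was. *MCM9*, the partner of MCM8, was at 6.15 and 10.8 CPM for Scr, 3.59 and 9.88 CPM for miR-23a KO and 9.08 and 9.74 CPM for miR-27a KO, with -0.27 ± 0.71 (SE), which turned to 0.18 without Scr replicate 2 and 0.22 without miR-23a KO replicate 1, and was -1.26 without replicate 2. *DCTD*, a deaminase that makes the precursor of thymidylate, was at 99.8 and 108 CPM for Scr, 96.0 and 75.4 CPM for miR-23a KO and 104 and 104 CPM for miR-27a KO, with -0.25 ± 0.42 (SE), and -0.46 without miR-23a KO replicate 1 or -0.14 without replicate 2. In each of these genes at least 1 miR-23a KO library lay under both Scr libraries.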

How the data were processed

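RNA of 6 HepG2 libraries was sequenced (TruSeq, stranded, paired reads of 150 cycles per the study's methods), and the authors deposited 1 table of 20026 genes; the submitters' processing notes name HISAT, StringTie, Cufflinks and GATK, and which of them made the values, their versions and the genome build were not given in the sources used here. As deposited, the values were taken as estimated counts per gene, not scaled by the authors for depth or length, although the columns are named FPKM: their totals differ between libraries and 34.5% to 40.8% of the values above 0 are whole numbers exactly as written, with no tolerance. They were rounded and fitted per pair of groups with edgeR 4.0.16 (filterByExpr, TMM, quasi-likelihood test) in R 4.3.3, with p-values adjusted over all genes tested; CPM uses TMM-scaled library sizes. TMM factors were 0.982 and 1.03 (Scr), 0.792 and 1.14 (miR-23a KO) and 1.04 and 1.04 (miR-27a KO). The biological coefficient of variation was 0.446 (miR-23a KO versus Scr), 0.159 (miR-27a KO versus Scr) and 0.415 (between the knockouts).

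The 8 alternatives were DESeq2 1.42.0, its size factors within edgeR (RLE), leaving low counts unfiltered, all 6 libraries in 1 fit, a replicate block, loess correction for GC content and length (span 0.5, degree 2), the last with the block, and limma 3.58.1 on per-length values (pseudocount 0.1); each library was also left out in turn. Length and GC content came from GENCODE 29, matched for 89.5% of genes. The code was tested on simulated data. The members and lists were chosen with earlier results of these data known. Values in every library were given for members called in any comparison, the 5 highest and 5 lowest fitted in each, other replication genes named among those called, and their 3 highest and 3 lowest against Scr; those of *CDT1*, *GMNN*, *CDC7*, *POLD3*, *FEN1* and *RRM2*, and the promoters and sites printed, were chosen after values were seen.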

Additional observations from a re-analysis of the deposited data

Results flagged for a closer look

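Genes were looked for whose libraries all lay above both Scr libraries in 1 knockout and all below them in the other. This held for 0 of the 47 replication genes, 2 of the 45 other replication genes and 782 of 13411 genes (5.83%). *TIMELESS*, which protects stalled forks, was at 79.7 and 75.5 CPM for Scr, 66.0 and 73.9 CPM for miR-23a KO and 93.5 and 89.8 CPM for miR-27a KO. Its libraries were lowest in miR-23a KO and highest in miR-27a KO, with no overlap. The tested difference between the knockouts was -0.4039 ± 0.308 (log2, SE; edgeR adjusted p = 0.812, over the 8 alternatives 0.538 to 1.00) and did not pass the threshold.

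*CHAF1A*, the large subunit of the factor that deposits histones on new DNA, was at 74.6 and 71.7 CPM for Scr, 92.9 and 103 CPM for miR-23a KO and 71.5 and 67.3 CPM for miR-27a KO. It was high in both miR-23a KO libraries and just under Scr in both miR-27a KO libraries. The difference between the knockouts was 0.4868 ± 0.308 (log2, SE; edgeR adjusted p = 0.786, over the 8 alternatives 0.507 to 1.00), which did not pass the threshold either.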

How the results depend on the processing

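All 9 genes called higher in miR-27a KO kept their direction under each of the 8 alternatives, but the number called (9) became 3 without the filter on low counts, 0 with all 6 libraries in 1 fit (0 at an unadjusted p under 0.05; edgeR), 14 with the GC content and length correction, 15 with that correction and the replicate block, and 0 to 39 on leaving out 1 library. The share of all genes called higher moved too, from 4.91% to 1.87%, 0.0212%, 7.94%, 9.89% and 0.574% to 23.8% in the same order. No call was made in miR-23a KO versus Scr under the 8 alternatives, and 0 to 11 on leaving out 1 library (4 to 2630 of all genes; DESeq2 0, with 1 at an unadjusted p under 0.05). Between the knockouts there was 1 call with correction and block (948 of all 13190 genes), and 0 to 35 on leaving out 1 library (72 to 9665 of all genes). Medians ran from 0.2562 to 0.5435 (miR-23a KO versus Scr), 0.2742 to 0.4659 (miR-27a KO versus Scr) and -0.1357 to 0.0495 (between the knockouts) on leaving out 1 library, and limma gave 0.33 for the first and -0.0952 for the last. With the replicate block alone, 7 genes were called in miR-27a KO (5.97% of all genes called higher) and 0 in the other comparisons (69 and 400 of all genes). In those other comparisons 1 and 0 of the 47 had an unadjusted p under 0.05 (edgeR). The medians with the block were 0.44, 0.30 and 0.02, in the order of the medians above. Replicate ratios correlated at 0.149, 0.010 and 0.017 over 14163 genes for the 3 pairs of groups. Such correlations cannot settle whether replicate numbers pair the samples.

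In miR-23a KO versus Scr, 71 of 80 values of 10 named genes kept their sign and side of the threshold over the 8 alternatives. Those that reversed were *ORC6* (-0.0363 with all 6 libraries, -0.0628 with the correction, -0.0682 with correction and block, -0.096 in limma), *PCNA* (-0.0222, -0.0228, -0.0296 and -0.0716 in the same order) and *RPA2* (-0.0119 in limma). For 17 genes in miR-27a KO versus Scr, 112 of 136 did, 20 lost and 2 gained a call, and *POLD2* reversed (0.083 with the correction, 0.0818 with correction and block). Between the knockouts 79 of 80 did. Among these named genes, on leaving out 1 library, the sign turned for *MCM6* (-1.6834 to 0.0359), *ORC6* (-0.2431 to 0.1867), *PCNA* (-0.1685 to 0.1855), *RFC1* (-0.0781 to 1.6522), *RPA2* (-0.1015 to 0.2177) and *TYMS* (-0.0009 to 0.241) in miR-23a KO versus Scr. It turned for *MCM6* (-0.4244 to 0.2307), *POLD1* (-0.0669 to 0.2404) and *TYMS* (-0.0167 to 0.1844) in miR-27a KO versus Scr, and for *MCM6* (-1.6125 to 0.0523), *ORC2* (-1.384 to 0.2315) and *POLD2* (-0.3326 to 1.6324) between the knockouts. Some replication genes outside these sets turned too, such as *CDC6* and *LIG1* in miR-23a KO versus Scr. The cause was not tested. Depth limits *CDC7* most, with 19 to 149 counts in a library.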
